A study of Mus musculus with 15 samples.

Results

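Keratins, epithelial adhesion genes and 2 signalling genes were followed through a knockdown experiment in cells labelled MDA-MB-468, an established basal-like breast carcinoma line. The genes are KRT8, KRT18, KRT10, KRT17, KRT19, KRT5, EPCAM, CDH1, EGFR and SMAD4. They were taken by symbol from the deposited count tables, and all 10 of 10 were found among 56967 gene symbols. They were read in 15 messenger RNA libraries, 3 in each of 5 groups. Every group carries a short hairpin RNA. NC received a control hairpin, shSHCBP1_1 and shSHCBP1_2 received either of 2 hairpins against SHCBP1, and shTMEM45A_1 and shTMEM45A_2 received either of 2 hairpins against TMEM45A. The shTMEM45A columns are numbered 2 and 4 in the files. The columns numbered 2 were taken as shTMEM45A_2 and are called set 2, and those numbered 4 were taken as shTMEM45A_1 by elimination and are called set 4.

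Keratins are the intermediate filament proteins of epithelial cells. A type I chain must pair with a type II chain to form a filament, and the pair in use marks the kind of epithelium. KRT8 (type II) and KRT18 (type I) form the filaments of simple epithelia, KRT19 is a further type I chain of simple and luminal breast epithelium, KRT5 is the type II chain of basal cells, KRT17 is a type I chain of basal-like and stressed epithelium, and KRT10 is a type I chain of differentiating epidermis. CDH1 encodes E-cadherin, the adherens junction receptor, and EPCAM encodes an adhesion molecule of most carcinomas. EGFR is the receptor for epidermal growth factor, and SMAD4 is the common partner of the receptor-activated SMADs in TGF-beta and BMP signalling. From background knowledge, MDA-MB-468 carries an amplified EGFR gene and homozygous deletions of SMAD4 and RB1.

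Library totals ran from 13780294 to 16484000 counts. Levels are CPM, counts relative to the library total, scaled by TMM, a factor that corrects each total for composition. They are not divided by transcript length, so a level is compared only within a gene. SHCBP1 itself was 44.1 ± 2.53 CPM in NC, 47.1 ± 1.24 in the libraries labelled shSHCBP1_1 and 44.3 ± 1.12 in those labelled shSHCBP1_2 (SD, n = 3), and the test called neither difference (edgeR adjusted p = 0.412 and 0.962). The labels of these 6 libraries are therefore not borne out by their target, and every direction for them below is that of the libraries so labelled. TMEM45A was lower in set 4 and set 2 than in NC by -0.58 and -0.46 on the log2 scale (edgeR adjusted p = 8.80e-06 and 0.000181). NC and the shSHCBP1 libraries stand in one deposited table and the shTMEM45A libraries in the other, so hairpin and table cannot be told apart wherever shTMEM45A is compared with NC. Nothing in the labels tells separate cultures from repeat libraries of 1 culture, and the p-values therefore cover no more than the variation among the libraries measured. In bulk RNA, fewer cells with a transcript and less of it per cell cannot be told apart.

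The marker genes went against the labelled line. KRT5 had 0 counts in all 15 libraries, which allows a level of up to 0.0135 CPM over their pooled total and covers counting error only. KRT19 had 1 count in NC replicate 3, 2 counts in shSHCBP1_2 replicate 1 and 0 counts in the other 13 libraries. Neither gene passed the filter on low counts, and no group differed detectably at this depth. A group with 0 counts over its 3 libraries may hold up to 0.0605 to 0.0726 CPM, depending on the group. KRT6A, KRT6B, KRT6C and KRT16, keratins of activated and basal-like epithelium, and TP63, the transcription factor of basal cells, also had 0 counts in every library. KRT14, the usual partner of KRT5, reached at most 3 counts in a library.

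SMAD4 was present throughout. Its counts were 420, 373 and 359 in NC and lay between 354 and 553 over all 15 libraries. RB1, the retinoblastoma tumour suppressor, had at least 167 counts in every library and 22.2 ± 0.690 CPM in NC (SD, n = 3). Both genes are known as deleted in MDA-MB-468, and no library was near 0 for either. EGFR, known as amplified in that line, was 16.3 ± 1.14 CPM in NC and at most 17.5 CPM in any library. No library of a reference line was measured here, so the level an amplified gene would give in this assay was not tested.

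Whole marker lists showed a mixed picture. Of 20 basal breast markers, 8 reached 1 CPM in NC, among them the transcription factor FOXC1 (93.7 CPM) and the laminin chain LAMA3 (47.9 CPM), while 4 had 0 counts in all libraries (KRT5, KRT6A, KRT6B and TP63). Of 16 luminal breast markers, 7 reached 1 CPM in NC, among them XBP1, GATA3, KRT8 and KRT18, whereas KRT19 did not. The summed luminal level was 323 to 332 CPM in NC, 470 to 496 in set 4 and 486 to 516 in set 2. This sum holds KRT8 and KRT18, at 79.3 and 44.6 CPM in NC, 168 and 144 in set 4 and 163 and 157 in set 2. Its rise is therefore not read apart from these genes. The summed basal level was 178 to 184 CPM in NC, 150 to 164 in set 4 and 126 to 141 in set 2. Of 8 luminal markers tested, 3 rose and 2 fell in set 4, and 6 rose and 2 fell in set 2. KRT8 and KRT18 are among the rises in each set. Of 11 basal markers tested, 5 rose and 2 fell in set 4, and 6 rose and 3 fell in set 2. The mesenchymal filament gene VIM stood at 418 CPM in NC, and the neuronal filament genes NEFM and NEFL at 255 and 176 CPM. Of the leukocyte markers, PTPRC and MS4A1 had 0 counts in every library. Of 7 endothelial markers none reached 1 CPM in NC. The summed level of 12 fibroblast and mesenchymal markers moved between groups, from 663 to 683 CPM in the NC libraries to 517 to 523 and 463 to 467 in those labelled shSHCBP1_1 and shSHCBP1_2, and to 854 to 882 in set 4 and 780 to 853 in set 2, which follows VIM, at 794 and 739 CPM in set 4 and set 2. Over all genes, the test called 35.6% higher and 38.9% lower in set 4, and 36.1% and 39.8% in set 2. Of the 7 fibroblast and mesenchymal markers tested, 1 rose (VIM) and 4 fell in each shTMEM45A set, with medians of -0.63 and -0.65 on the log2 scale. Their part in the results below was not tested. The marker plot sets these lists beside each other.

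**Figure D1:**
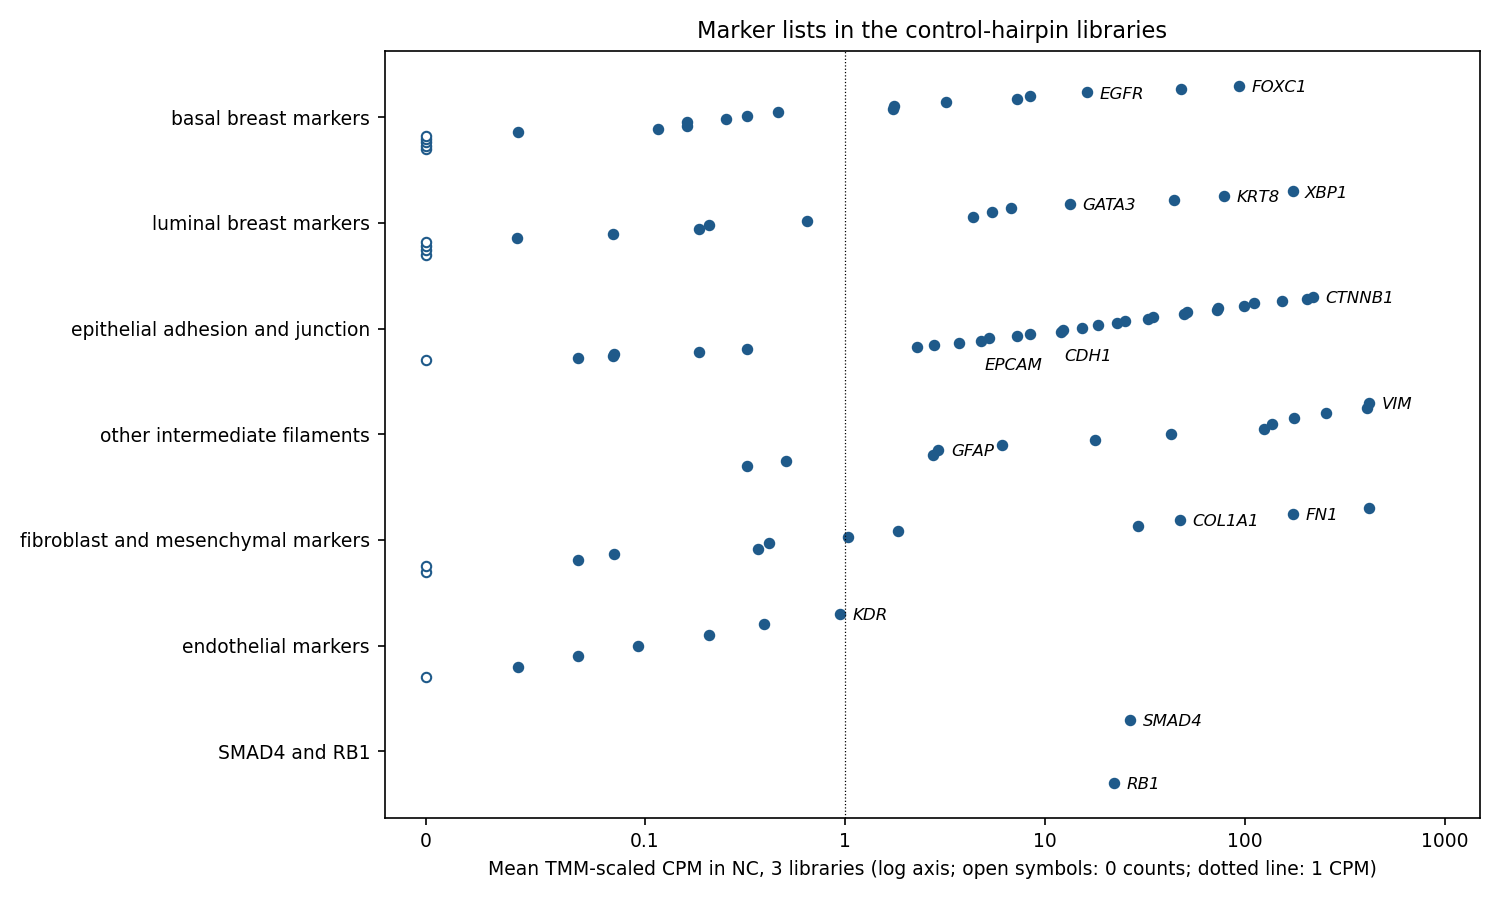
Mean TMM-scaled CPM of the list genes reported in the 3 NC libraries, on a log axis, 1 point per gene and 1 row per list, with open symbols for genes at 0 counts in NC. Basal and luminal breast markers each spread from 0 counts in NC to over 90 CPM, SMAD4 and RB1 lie above 20 CPM, and endothelial markers lie below 1 CPM. CPM is not divided by length, so points are read against 0 and 1 CPM and not ranked against each other.

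KRT8 and KRT18, the simple epithelial pair, were the clearest keratin signal in every library. KRT8 was 80.1, 78.0 and 79.8 CPM in the 3 NC libraries, 88.9, 95.4 and 84.9 in those labelled shSHCBP1_1, and 90.4, 90.3 and 90.2 in those labelled shSHCBP1_2. It was 176, 176 and 151 CPM in set 4 and 171, 154 and 164 in set 2. The shTMEM45A libraries were all above the other 9, and the shSHCBP1 libraries were all above NC by a much smaller step. Against NC, KRT8 rose by 1.08 ± 0.0616 (log2, SE) in set 4 and 1.04 ± 0.0616 in set 2 (edgeR adjusted p = 4.93e-16 and 1.28e-15). In the libraries labelled shSHCBP1_1 and shSHCBP1_2 the change was 0.18 ± 0.0625 and 0.19 ± 0.0626 (edgeR adjusted p = 0.0421 and 0.0221). Both of these small calls were lost with median-ratio (RLE) size factors, at 0.11 and 0.11 (adjusted p = 0.201 and 0.179), and in DESeq2. Each was also lost when any of 5 of the 6 libraries compared was left out, with values over all 6 from 0.13 to 0.22 and from 0.18 to 0.20.

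KRT18 was 44.1, 45.7 and 43.8 CPM in NC, 51.7, 49.0 and 47.8 in the libraries labelled shSHCBP1_1 and 48.3, 45.6 and 47.9 in those labelled shSHCBP1_2. It was 149, 151 and 132 CPM in set 4 and 163, 147 and 162 in set 2. The shTMEM45A libraries again lay apart from all others, while NC and shSHCBP1_2 overlapped. KRT18 rose by 1.69 ± 0.0643 in set 4 and 1.82 ± 0.0642 in set 2 (log2, SE; edgeR adjusted p = 2.27e-20 and 3.02e-21). Neither shSHCBP1 change was called, at 0.15 ± 0.0669 and 0.08 ± 0.0674 (edgeR adjusted p = 0.111 and 0.367). The 2 partners did not change by the same amount. Genes of like transcript length, described below, also differed, with set 4 medians of 0.44 for KRT8 and 0.64 for KRT18. The part of length in the difference was not tested. There were 0.562 ± 0.0205 KRT18 counts per KRT8 count in NC, 0.859 ± 0.0145 in set 4 and 0.967 ± 0.0182 in set 2 (SD, n = 3), and the libraries of NC and either shTMEM45A set did not overlap in this ratio.

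**Figure D2:**
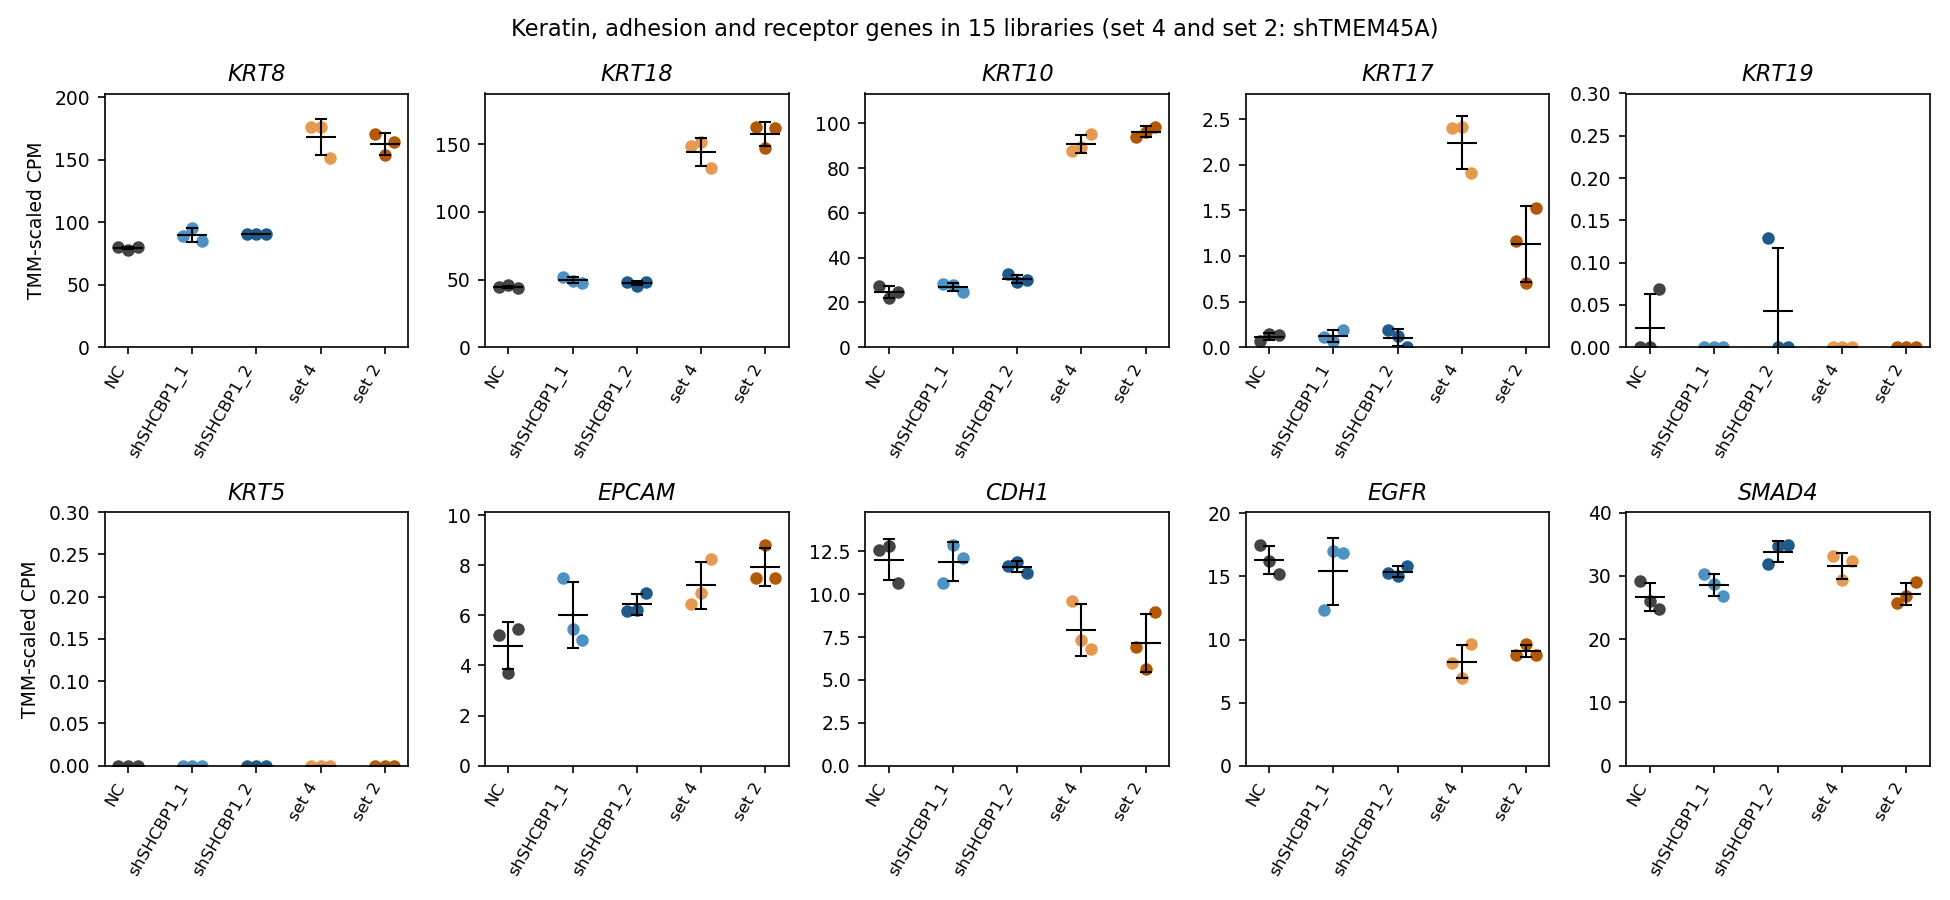
TMM-scaled CPM of the 10 genes in each of the 15 libraries, 1 panel per gene with its own axis from 0, points for libraries and bars for the mean ± SD of 3. KRT8, KRT18, KRT10 and KRT17 are high in all 6 shTMEM45A libraries (set 4 and set 2), CDH1 and EGFR are low there, and KRT19 and KRT5 stay at or near 0 everywhere.

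KRT10, the epidermal type I chain, was 27.6, 22.2 and 24.5 CPM in NC, 28.2, 27.7 and 24.7 in the libraries labelled shSHCBP1_1 and 32.6, 29.4 and 30.0 in those labelled shSHCBP1_2. It was 87.5, 89.7 and 95.2 CPM in set 4 and 93.8, 96.3 and 98.6 in set 2. Every shTMEM45A library was above every other library, and every library labelled shSHCBP1_2 was above NC. KRT10 rose by 1.87 ± 0.0771 and 1.96 ± 0.0770 in set 4 and set 2 (log2, SE; edgeR adjusted p = 1.69e-19 and 4.35e-20). It rose by 0.31 ± 0.0820 in the libraries labelled shSHCBP1_2 (edgeR adjusted p = 0.00431), and the 0.12 ± 0.0827 in those labelled shSHCBP1_1 was not called (edgeR adjusted p = 0.348). TMEM99, which lies across KRT10 on the other strand in the human genome, also rose in both shTMEM45A sets, by 1.38 and 1.76. The kit does not mark the strand, so how their reads were divided cannot be told.

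KRT17 was nearly silent outside the shTMEM45A libraries. Its counts were 1, 2 and 2 in NC, 2, 1 and 3 in the libraries labelled shSHCBP1_1 and 3, 2 and 0 in those labelled shSHCBP1_2, against 35, 33 and 25 in set 4 and 16, 10 and 21 in set 2. All 6 shTMEM45A libraries were above the other 9. KRT17 entered the test only because of those 6 libraries, so its call there follows from the filter and is given as a description. Scaled for library totals, the summed counts of set 4 were 19.4 times those of NC (95% counting interval 8.03 to 61.2), and those of set 2 were 9.72 times (3.88 to 31.3). At 2.24 ± 0.289 and 1.13 ± 0.412 CPM (SD, n = 3) it remained a small share of keratin counts. Summed over 8 KRT17 pseudogene rows, each library of NC had 0 counts. Libraries labelled shSHCBP1_1 had 3 to 7 and those labelled shSHCBP1_2 had 2 to 8, against 0 to 5 in set 4 and 0 to 7 in set 2. How reads were divided between KRT17 and these rows was not tested.

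The wider keratin family was mostly silent. The tables hold 55 keratin genes, of which 22 had 0 counts in all libraries and 14 more never exceeded 3 counts in a library, while 3 reached 1 CPM in NC. KRT8, KRT18 and KRT10 together gave 96.7% ± 0.448 of all keratin counts in NC and 98.5% ± 0.301 in set 2 (SD, n = 3). The summed keratin level was 154 ± 3.30 CPM in NC, 172 ± 7.60 and 173 ± 3.01 in the libraries labelled shSHCBP1_1 and shSHCBP1_2, 412 ± 22.1 in set 4 and 423 ± 16.6 in set 2. The share of KRT8 in it was 51.6% ± 0.751 in NC and 38.5% ± 0.855 in set 2, and that of KRT10 was 16.1% ± 1.42 and 22.8% ± 1.10.

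Of the 9 keratin genes that could be tested, 5 were called higher in set 4 and 6 in set 2, and 1 was called lower in both. Over all genes, 35.6% were called higher and 38.9% lower in set 4, and 36.1% and 39.8% in set 2. The keratin counts are therefore not read as particular to keratins. Beyond KRT8, KRT18, KRT10 and KRT17, the hair follicle keratin KRT75 had 12 counts over the NC libraries, 69 over set 4 and 74 over set 2. Like KRT17, it passed the filter through the shTMEM45A libraries, so its calls are a description. KRT222 was called higher in set 2 alone, although its libraries overlapped those of NC. The hair keratin KRT38 was the gene called lower, with 43 counts over the NC libraries, 3 over set 4 and 0 over set 2, and it passed the filter through groups where it is high. KRT13, a keratin of stratified mucosa, was 0.765 CPM in NC and was called in neither set. KRT75, KRT222 and KRT38 were chosen after their values were seen.

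**Figure D3:**
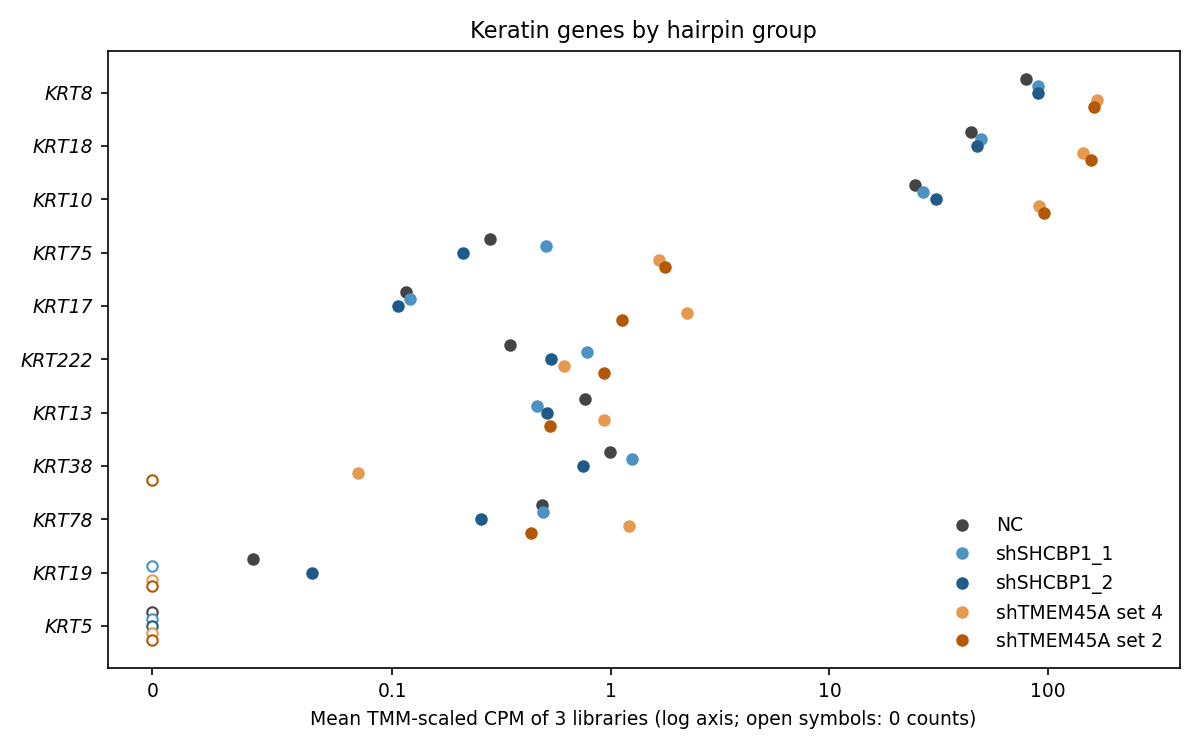
Mean TMM-scaled CPM of the 9 tested keratin genes and of KRT19 and KRT5 in each group, 3 libraries per mean, on a log axis with open symbols for 0 counts. KRT8, KRT18 and KRT10 lie between 24.7 and 168 CPM with the shTMEM45A sets to the right, all other keratins lie under 3 CPM, and KRT5 is at 0 in every group.

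Processed copies of KRT8 and KRT18 are common in the human genome, and reads can be divided between a gene and such near-identical copies, so both genes carry that uncertainty. The tables hold 50 KRT8 and 67 KRT18 pseudogene rows. These rows took 19.1% of the summed counts of KRT8 and its pseudogenes in NC, against 7.31% in set 4 and 7.40% in set 2, and for KRT18 14.4% against 1.36% and 1.29%. All 4 of 4 tested KRT18 pseudogenes were lower in both shTMEM45A sets. They passed the filter through groups where they are high, so their calls are a description. Of 6 tested KRT8 pseudogenes, 5 were lower in set 4 and 4 in set 2, and KRT8P12 rose in both. Among these, KRT8P39 and KRT8P46 also passed the filter through groups where they are high. With the pseudogene rows added, KRT8 went from 98.0 ± 1.63 CPM in NC to 181 ± 16.4 and 176 ± 9.68, and KRT18 from 52.1 ± 0.429 to 146 ± 10.6 and 159 ± 8.68. Both still rose in set 4 and set 2, while neither small shSHCBP1 change of KRT8 was called any longer (0.12 and 0.11; edgeR adjusted p = 0.169 and 0.183).

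EPCAM had 53 to 136 counts in a library. It was 5.21, 3.71 and 5.46 CPM in NC, 7.50, 5.47 and 5.03 in the libraries labelled shSHCBP1_1, 6.18, 6.22 and 6.90 in those labelled shSHCBP1_2, 6.45, 6.89 and 8.24 in set 4 and 7.48, 8.80 and 7.48 in set 2. The shTMEM45A libraries were all above NC but overlapped the shSHCBP1 libraries. EPCAM rose by 0.58 ± 0.189 in set 4 and 0.72 ± 0.187 in set 2 (log2, SE; edgeR adjusted p = 0.00687 and 0.000927). The call in set 4 was lost without NC replicate 2 (0.42; adjusted p = 0.0655) with scaling by total counts (0.39; adjusted p = 0.0633) and with the trend over transcript length described below taken out (0.30; adjusted p = 0.159). The 0.33 ± 0.189 and 0.42 ± 0.188 of the libraries labelled shSHCBP1_1 and shSHCBP1_2 were not called (edgeR adjusted p = 0.240 and 0.0879).

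CDH1 went the other way. It was 12.6, 12.8 and 10.6 CPM in NC, 10.6, 12.9 and 12.1 in the libraries labelled shSHCBP1_1 and 11.6, 11.9 and 11.2 in those labelled shSHCBP1_2, and then 9.60, 7.33 and 6.79 in set 4 and 6.90, 5.63 and 8.94 in set 2. All 6 shTMEM45A libraries were below the other 9, and the 3 remaining groups overlapped. CDH1 fell by 0.60 ± 0.158 in set 4 and by 0.75 ± 0.160 in set 2 on the log2 scale (SE; edgeR adjusted p = 0.00123 and 0.000117). With the length trend taken out, the values were -0.25 and -0.37, and the call in set 4 was lost (adjusted p = 0.148 and 0.0345). Its shSHCBP1 changes were -0.02 ± 0.149 and -0.05 ± 0.150 (edgeR adjusted p = 0.957 and 0.836), with a sign that turned under scaling by total counts.

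Other adhesion and junction genes changed in both directions. Of 31 such genes, EPCAM and CDH1 among them, 26 were tested. In set 4, 9 rose and 13 fell, with a median log2 change of -0.23 against -0.03 over all genes. In set 2, 9 rose and 12 fell, with a median of -0.15 against -0.04. Over all genes, 35.6% were called higher and 38.9% lower in set 4, and 36.1% and 39.8% in set 2. The tight junction genes CLDN4 and CLDN7 rose, by 1.20 and 0.68 in set 4 (edgeR adjusted p = 0.000143 and 0.0170), CLDN7 under 3 of 4 scalings. OCLN, the gene of occludin, fell by 2.03 in set 4 (edgeR adjusted p = 7.15e-12). The catenin genes CTNNB1 and CTNNA1, whose proteins link E-cadherin to actin, fell by 0.88 and 0.73 in set 4 and by 0.79 and 0.78 in set 2. In the libraries labelled shSHCBP1_1, 4 of 26 rose and 0 fell, and in those labelled shSHCBP1_2, 3 rose and 4 fell. Shares over all genes were 9.34% higher and 10.5% lower in shSHCBP1_1, and 15.6% and 15.4% in shSHCBP1_2. MARVELD2 (tricellulin) rose in both, by 0.60 and 0.66 (edgeR adjusted p = 0.0120 and 0.00356), and so did TJP1, by 0.30 and 0.63.

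Among 8 repressors of CDH1 transcription, all 8 were tested, and 2 rose and 6 fell in set 4 while 2 rose and 5 fell in set 2. SNAI2 was 15.9 CPM in NC and rose by 2.06 in set 4 and 1.73 in set 2 (edgeR adjusted p = 7.64e-20 and 6.36e-18), and TWIST2 rose by 0.73 and 0.52. SNAI1 fell by 0.85 and 0.95, and ZEB1 by 0.93 and 0.86. The median log2 change of the 8 was -0.35 in set 4 against -0.03 over all genes, and -0.43 in set 2 against -0.04. Over all genes, 35.6% were called higher and 38.9% lower in set 4, and 36.1% and 39.8% in set 2. In the libraries labelled shSHCBP1_1, 1 rose and 1 fell, and in those labelled shSHCBP1_2, 2 rose and 2 fell, with SNAI2 higher and SNAI1 lower in both. Shares over all genes were 9.34% higher and 10.5% lower in shSHCBP1_1, and 15.6% and 15.4% in shSHCBP1_2. Regulators of epithelial identity and polarity were sparse, with 13 of 20 tested. There AP1M2, an adaptor subunit of basolateral sorting, rose by 2.25 and 1.80. The splicing regulator ESRP2 had 47 counts over the NC libraries, 12 over set 4 and 2 over set 2. It passed the filter through groups where it is high, so these counts are a description.

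EGFR was 17.5, 16.2 and 15.2 CPM in NC, 12.3, 17.0 and 16.9 in the libraries labelled shSHCBP1_1 and 15.3, 15.0 and 15.8 in those labelled shSHCBP1_2. It was 8.16, 6.96 and 9.62 CPM in set 4 and 8.79, 9.65 and 8.79 in set 2. The 6 shTMEM45A libraries were all below the other 9, and NC and both shSHCBP1 groups overlapped. EGFR fell by 0.98 ± 0.140 in set 4 and by 0.84 ± 0.138 in set 2 on the log2 scale (SE; edgeR adjusted p = 2.51e-07 and 2.52e-06). Both calls were lost with the length trend taken out, at -0.14 and 0.0372 (adjusted p = 0.357 and 0.813). Its shSHCBP1 changes were -0.09 ± 0.128 and -0.09 ± 0.129 (edgeR adjusted p = 0.706 and 0.662), and total-count scaling turned their sign. EGFR-AS1, an antisense transcript of the locus, had 26 counts over the NC libraries and 0 over either shTMEM45A set. Without strand, its reads and those of EGFR cannot be told apart.

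The genes around EGFR were read by role. Among the ligands, 3 of 7 were tested. HBEGF, which also binds ERBB4, rose by 0.84 and 0.78 in set 4 and set 2 (edgeR adjusted p = 3.04e-07 and 1.15e-06), and EGF had 11 counts over the NC libraries against 48 and 40 over those labelled shSHCBP1_1 and shSHCBP1_2, a description only, since it passed the filter through groups where it is high. Among the 4 receptors of the family, 3 were tested. In set 4, 0 rose and 2 fell, and in set 2, 1 rose (ERBB3) and 2 fell. The ERBB3 call was lost with total-count scaling. ERBB2 was 62.3 CPM in NC and fell with EGFR, by 0.83 and 0.86, while ERBB4 stayed at or under 0.0424 CPM in every group. Of 19 adaptors and inhibitors, 1 rose and 13 fell in set 4, and 2 rose and 11 fell in set 2. Their median log2 change was -0.76 in set 4 against -0.03 over all genes, and -0.97 in set 2 against -0.04. Over all genes, 35.6% were called higher and 38.9% lower in set 4, and 36.1% and 39.8% in set 2. PTPN11, a phosphatase that relays the receptor signal, fell by 1.87 and 1.81, RASA1, a RAS inhibitor, fell by 1.82 and 1.54, and the adaptor GRB2 rose by 0.22 in both, a call that was lost with total-count scaling (0.03 and 0.03). In the libraries labelled shSHCBP1_1, 1 of the 19 rose and 4 fell, and in those labelled shSHCBP1_2, 4 rose and 5 fell. Shares over all genes were 9.34% higher and 10.5% lower in shSHCBP1_1, and 15.6% and 15.4% in shSHCBP1_2. ERRFI1, a feedback inhibitor of EGFR, fell in both, by 0.49 and 0.67.

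SMAD4 was 29.1, 26.1 and 24.8 CPM in NC, 30.3, 28.7 and 26.8 in the libraries labelled shSHCBP1_1, 31.9, 34.8 and 34.9 in those labelled shSHCBP1_2, 33.1, 29.3 and 32.4 in set 4 and 25.7, 26.8 and 29.0 in set 2. The libraries labelled shSHCBP1_2 and those of set 4 were all above NC, and the other 2 groups overlapped it. SMAD4 rose by 0.34 ± 0.0865 in the libraries labelled shSHCBP1_2 and by 0.24 ± 0.0878 in set 4 (log2, SE; edgeR adjusted p = 0.00272 and 0.0139). The call in set 4 was lost with total-count scaling (0.05; adjusted p = 0.594) and without NC replicate 2 (0.22; adjusted p = 0.0505), NC replicate 3 (0.20; adjusted p = 0.0753) or set 4 column 1 (0.20; adjusted p = 0.0648). The 0.10 ± 0.0872 of shSHCBP1_1 and the 0.02 ± 0.0890 of set 2 were not called (edgeR adjusted p = 0.463 and 0.808).

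The other SMADs did not share that pattern in the shTMEM45A libraries. Of 8 SMAD genes, SMAD4 was the only one to rise in set 4 and 5 fell, and in set 2 none rose and 6 fell. With the length trend taken out, 3 were higher and 4 lower in set 4, and 1 higher and 5 lower in set 2. SMAD1 and SMAD5, which carry BMP signals, fell by 2.46 and 1.22 in set 4 and by 3.26 and 1.30 in set 2. The median over the 8 was -0.59 in set 4 against -0.03 over all genes, and -0.68 in set 2 against -0.04. Among 10 TGF-beta and BMP receptors, 1 rose and 7 fell in set 4, and 1 rose and 8 fell in set 2. Their medians were -0.37 and -0.59, against -0.03 and -0.04 over all genes. Over all genes, 35.6% were called higher and 38.9% lower in set 4, and 36.1% and 39.8% in set 2. The activin receptors ACVR1B and ACVR2B fell by 1.49 and 1.14 in set 4 and by 1.56 and 1.09 in set 2, and BMPR1B rose by 0.62 and 0.46 (0.43 and 0.27 under the scaling that gave the lowest values, where it was not called). Of 10 tested co-factors and targets, 5 rose and 4 fell in both sets. TGIF2, a co-repressor of SMADs, rose by 1.42 and 1.45, and the BMP target ID1 rose by 1.33 and 1.16, while the co-repressor SKI fell by 1.21 and 1.38.

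These changes stood against a broad background. The test called 74.4% of 19051 genes in set 4 (35.6% higher, 38.9% lower), and of the 8 genes that passed the filter all were called, 6 higher and 2 lower. It called 75.9% in set 2 (36.1% higher, 39.8% lower), and 7 were called, 5 higher and 2 lower. Libraries of the 2 groups did not overlap for 8 of the 8 in set 4, against 76.1% of all genes, and for 7 of 8 in set 2, against 74.9%. KRT17 counts among these through the filter alone. In the libraries labelled shSHCBP1_1 the test called 19.9% of genes (9.34% higher, 10.5% lower) and 1 of the 8, KRT8, and libraries did not overlap for 2 of the 8 against 41.5%. In those labelled shSHCBP1_2 it called 31.1% of genes (15.6% higher, 15.4% lower) and 3 of the 8, KRT8, KRT10 and SMAD4, and libraries did not overlap for 4 against 50.2%. With 8 genes, none of these counts is read as particular to them. The list counts above stand against the same shares and are likewise not read as particular to a list. With total-count scaling, 86.1% and 81.7% of the calls in the libraries labelled shSHCBP1_1 and shSHCBP1_2 were higher, against 47.0% and 50.3% with TMM. The fitted changes are plotted gene by gene.

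**Figure D4:**
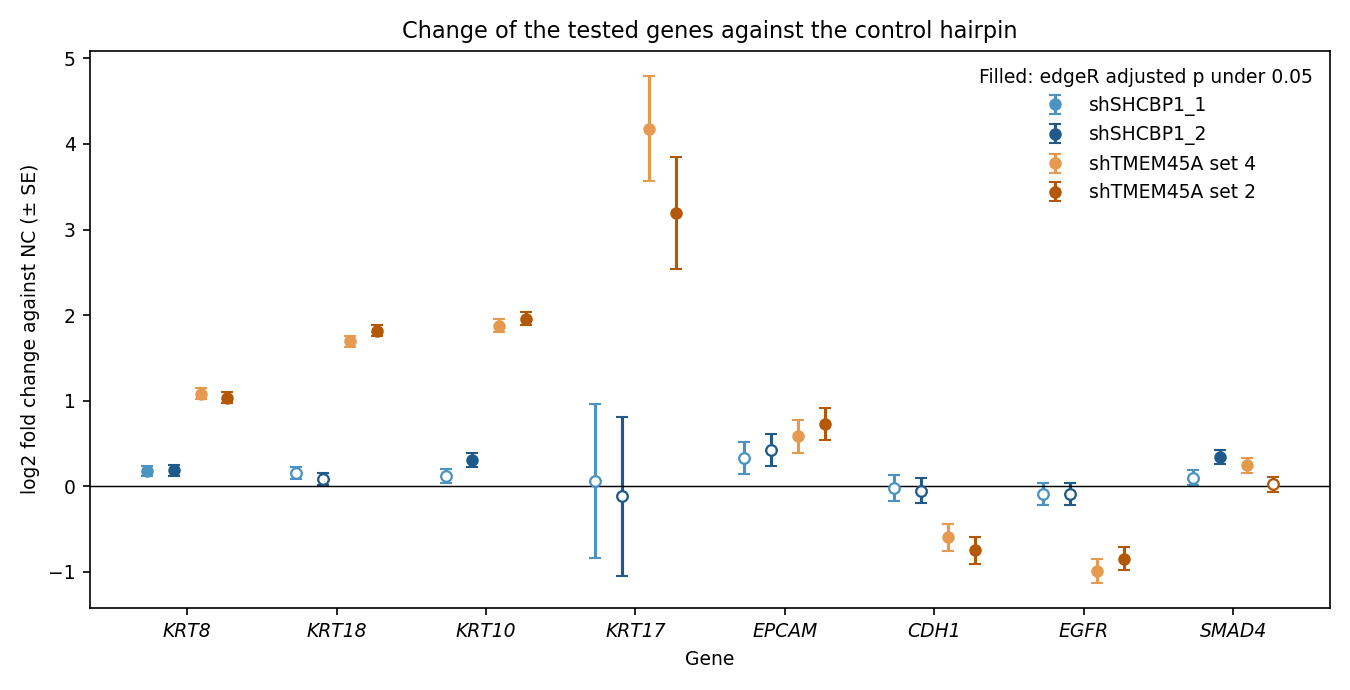
Log2 fold change against NC with its SE for the 8 tested genes in the 4 hairpin groups, filled symbols where the edgeR adjusted p was under 0.05. The shTMEM45A sets are at 1.04 or more for KRT8, KRT18, KRT10 and KRT17 and below 0 for CDH1 and EGFR, while the shSHCBP1 groups lie within 0.43 of 0 for every gene.

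The hairpin sets of a target were also compared with each other. The test called 0.835% of genes between shSHCBP1_2 and shSHCBP1_1 (0.499% higher, 0.336% lower) and 5.27% between set 2 and set 4 (1.95% higher, 3.32% lower), and 0 of the 8 in either comparison with edgeR. Unadjusted p-values were under 0.05 for KRT10 and SMAD4 in the first (2 genes) and for KRT18, KRT17 and SMAD4 in the second (3 genes), and DESeq2 also called 0. Libraries did not overlap for 2 of the 8 in each, KRT10 and SMAD4 against 24.5% of all genes, and KRT17 and SMAD4 against 16.2%. SMAD4 was higher in shSHCBP1_2 than in shSHCBP1_1 by 0.24 ± 0.0849 (log2, SE; edgeR adjusted p = 0.218). KRT17 was lower in set 2 than in set 4 by -0.99 ± 0.442 (edgeR adjusted p = 0.207), at 1.13 against 2.24 CPM. When only the compared groups entered the fit, more genes were called between the shSHCBP1 groups and fewer between the shTMEM45A sets. The counts are given at the end. The SMAD4 difference was called when only the shSHCBP1 groups entered the fit (0.24; adjusted p = 0.0148).

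In the shTMEM45A libraries the change of a gene went with transcript length, and the genes here differ in length. Human lengths were not used here, so each gene was given the longest protein-coding transcript of the mouse gene with the same symbol (GENCODE M21), which 12716 of 19051 tested genes (66.7%) and all 10 genes here have. In set 4 the median log2 change was 1.31 in the shortest of 20 length bins and -0.84 in the longest. KRT8 (1958 nt), KRT18 (1437 nt) and KRT10 (2094 nt) rose by more than the median of their bins, which was 0.44, 0.64 and 0.25 in set 4. EPCAM (2040 nt) was near its bin median of 0.44, with 57.8% of the bin below it. CDH1 (4430 nt) changed by -0.60 in a bin whose median was -0.36. EGFR (10208 nt) changed by -0.98 in a bin whose median was -0.84, and SMAD4 (3384 nt) by 0.24 in a bin at -0.08.

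The fit with the length trend taken out, added after the data were seen, was made on the matched genes alone. KRT8, KRT18 and KRT10 still rose, by 0.76, 1.06 and 1.62 in set 4 and by 0.72, 1.18 and 1.71 in set 2. SMAD4 rose by 0.36 in set 4 (edgeR adjusted p = 0.000520). EPCAM, CDH1 and EGFR were no longer called in set 4, with the values given above, and in set 2 EPCAM (0.45; edgeR adjusted p = 0.0324) and CDH1 were still called and EGFR was not. The falls among the 19 EGFR adaptors and inhibitors numbered 10 in set 4 and 11 in set 2 after this step, with 3 and 5 higher, and those among the repressors of CDH1 numbered 4 in each, with 4 higher. The TGF-beta and BMP receptors then stood at 3 higher and 3 lower in set 4 and 3 higher and 2 lower in set 2. The part of length in these changes was not tested beyond this.

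**Figure D5:**
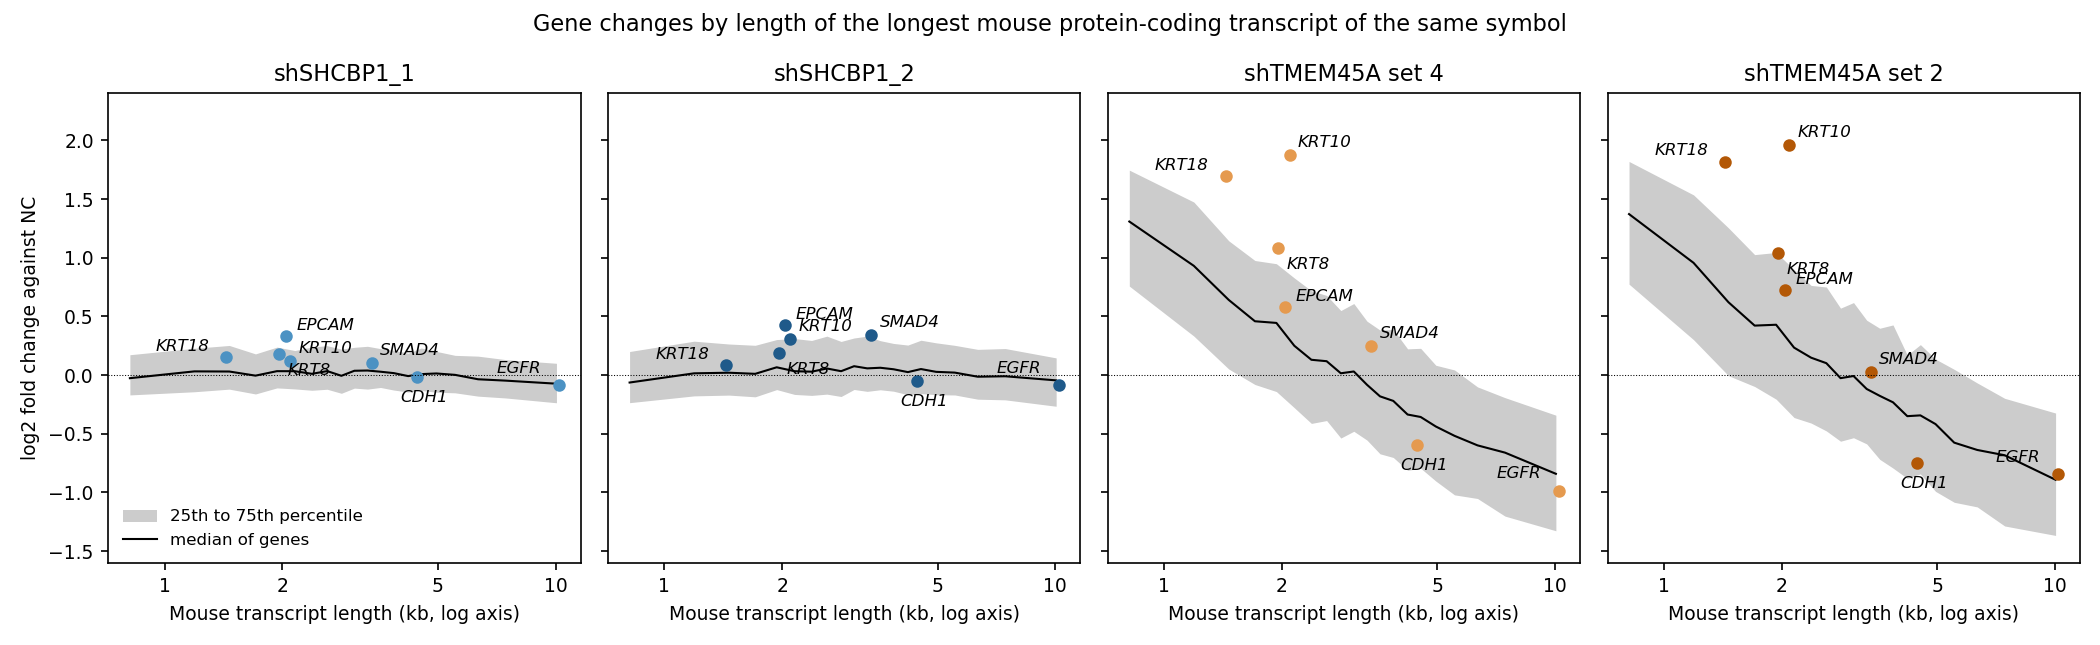
Log2 fold change against NC by length of the longest mouse protein-coding transcript of the same symbol (log axis), with the median (line) and the 25th to 75th percentile (grey) of 20 bins of genes and 7 of the tested genes as points, without KRT17. The line falls with length in both shTMEM45A panels and is nearly flat in both shSHCBP1 panels, KRT18 and KRT10 lie above the grey band in both shTMEM45A sets, and EGFR lies close to the line.

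Some genes followed the same course over the 15 libraries. Likeness was taken as the root mean square difference of centred log2 CPM, among genes of mean log2 CPM of at least 2, and says nothing of shared function. PPP4C, a phosphatase subunit, lay nearest to KRT8 at 0.0591, followed by SURF6 at 0.0617. PRPF31, a splicing factor, lay nearest to KRT18 at 0.0547, followed by COMMD4 at 0.0743. The nearest to KRT10 were ATP6V0E1 (0.0961) and EEF1E1 (0.105), and those to KRT17 were IFI27L2 (0.402) and FKBPL (0.431). JHY (0.158) and TAF7 (0.166) were nearest to EPCAM, C3orf52 (0.114) and KAT6B (0.121) to CDH1, and SH3PXD2B (0.0935) and HNRNPF (0.0979) to SMAD4. DCAF12 (0.111) was nearest to EGFR, followed by CTNNB1 (0.115), the beta-catenin gene named above.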

How the data were processed

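The authors deposited raw counts by gene symbol in 2 tables, and CPM was computed from them here. The aligner and the counting tool are not stated in the labels or tables. Per the submitters' processing notes the build is mm10 and per the labels the organism is the mouse, whereas the tables carry human symbols, so they were read as human and no coordinates or sequences were used. Per the labels' protocols, libraries were made from poly-A RNA with NEBNext Ultra, which keeps no strand, and read as paired ends. Names on more than 1 row or turned into dates were left out (200 names, 1768 rows), and 0 library columns were unused.

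The filter on low counts was edgeR's filterByExpr with minima of 10 for a count and 15 for a total, and 19051 genes passed. All 15 libraries entered one edgeR 4.0.16 quasi-likelihood fit of group means in R 4.3.3 with TMM scaling, Benjamini-Hochberg adjustment over all tested genes and a threshold of 0.05. The SE was taken from the log2 change and its F statistic. Spread between 2 libraries of a group was taken as the mean squared count difference per gene, relative to counting error. It was 1.97 to 2.99 in NC and 1.74 to 2.19 in the libraries labelled shSHCBP1. In set 4 it was 3.63 to 5.51 and in set 2 4.96 to 9.19. The fit shares its estimate of spread over all groups, so the SEs and p-values do not follow the spread of each group. Counts were simulated for shSHCBP1_1 against NC over 19051 genes, with 100 genes changed at each fold. The test recovered 74% of 1.5-fold and 86% of 2-fold changes, with 8 calls among unchanged genes. The changed genes were drawn from those above a set level in NC, so these rates do not cover sparse genes. DESeq2 1.42.0, other scalings, filters and subsets of libraries were alternatives. Counting intervals cover 95% and counting error only, and the limit for a count of 0 is 3 counts.

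The genes and lists were chosen with earlier results of these data known. From each list the text names the 2 genes highest in NC and up to 2 rises and 2 falls per target called in both sets, and genes named for their absence. Pseudogene, antisense and further keratin genes were named after their values were seen. Some genes of the lists are not reported here.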

Additional observations from a re-analysis of the deposited data

How the results depend on the processing

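In set 4 and set 2, KRT8, KRT18 and KRT10 kept their rise under every alternative in which they were tested. The number of the 8 genes called in the libraries labelled shSHCBP1_1, 1 in the report, was 0 with RLE size factors, 0 with DESeq2, 0 with the length trend removed, 0 with pseudogene rows added, 4 with total-count scaling, 2 with only the compared groups in the fit, and 0 to 1 leaving out a library. In those labelled shSHCBP1_2 it was 5 in place of 3 with total-count scaling, and between shSHCBP1_2 and shSHCBP1_1 it was 1 in place of 0 with only these groups. In set 4 it was 5 in place of 8 with the length trend removed, and EGFR in set 2 turned to 0.0372. Genes called overall were 9175 in set 4 and 9461 in set 2 with the length trend removed, which tests 12716 genes. With only the compared groups they were 5708 for shSHCBP1_1 against NC (3787 in the report), 1674 for shSHCBP1_2 against shSHCBP1_1 (159) and 129 for set 2 against set 4 (1004). For shSHCBP1_2 against shSHCBP1_1 they were 425 with DESeq2 and 27 to 54 leaving out a library. The cause was not tested.

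Total-count scaling moved the median of all genes to 0.15 and 0.17 in the shSHCBP1 comparisons and to -0.23 in both shTMEM45A comparisons. The share of calls that were higher in the libraries labelled shSHCBP1_1 was 47.0% with TMM, 29.1% with RLE and 86.1% with total counts, and in those labelled shSHCBP1_2 it was 50.3%, 34.6% and 81.7%. Between shSHCBP1_2 and shSHCBP1_1 it was 59.7% with TMM and 80.7% with total counts, and 41.0% with the upper quartile.

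Libraries with the same replicate number did not deviate together (correlations from -0.0353 to 0.0377 in 18 pairs). The replicate number was used as a block over the 12 libraries whose columns match a labelled replicate. With this block, 4016 genes were called for shSHCBP1_1, 6202 for shSHCBP1_2 and 14362 for set 2 against NC. No call on the genes reported changed where they were tested.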
